A study of Homo sapiens with 5 samples.

Results

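The 7 genes described here are ND1, ND2, ND3, ND4, ND4L, ND5 and ND6, the subunits of respiratory complex I that are encoded in the mitochondrial genome. They were taken by symbol from a table of 25702 genes, in which each is listed as a NADH dehydrogenase subunit, and all 7 passed the filter on low values. The group was chosen by its count values in all 5 libraries, with earlier results for both comparisons known: immunoprecipitate over input, and the small molecule No.10-3 over vehicle. The differences of its members in both comparisons are therefore given as a description. No p of a member is given, and where members past a threshold are counted, the share of all genes past it stands beside the count and nothing is read from it.

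The study measured RNA bound to PSF in LTAD, a prostate cancer line of human origin grown in phenol-red-free medium with charcoal-treated serum, which is low in androgen. PSF is the product of SFPQ and binds RNA in the nucleus, where it is part of paraspeckles. RNA immunoprecipitated with PSF (PSF-RIP) was sequenced from cells given 5 µM No.10-3 (2 libraries, replicates 1 and 2) and from cells given the DMSO vehicle (1 library), and input RNA was sequenced from 2 libraries, 1 of each treatment. The names of the input columns do not tell which treatment each came from, so the inputs are called A and B and serve together as the reference. No.10-3 is known here only by its code name. The labels list no control immunoprecipitation among these 5 libraries, and they do not say whether the No.10-3 pair came from separate cultures, so the spread between libraries may be technical.

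Complex I takes electrons from NADH, passes them to ubiquinone and pumps protons across the inner mitochondrial membrane. Its membrane arm contains the 7 mitochondrially encoded subunits, and all other subunits are made from nuclear genes. The mitochondrial genome is transcribed from both strands into long RNAs that are cut into single mRNAs, largely at the tRNAs between the genes. ND6 is the only protein-coding gene read from the light strand, and the other members are read from the heavy strand. ND2, ND4 and ND5 encode the antiporter-like subunits of the proton-pumping arm, ND1 lies at the junction with the peripheral arm near the quinone site, and ND3, ND4L and ND6 are small subunits close to it.

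Library totals were 1519362 counts for No.10-3 PSF-RIP replicate 1, 3368252 for replicate 2, 2181770 for vehicle PSF-RIP, 4010376 for input A and 3083063 for input B. The kinds of library differed widely in composition. The small nuclear-encoded RNAs RN7SK, RN7SL1, RN7SL2, RMRP and RPPH1 took 2.63% to 7.81% of counts in PSF-RIP and 51.7% to 55.0% in input, and nuclear protein-coding genes took 73.6% to 82.1% in PSF-RIP and 15.9% to 16.4% in input. Luminal prostate markers were present in every library, with 8 of 8 detected and summed levels of 2360 to 2870 CPM (counts scaled to the library total) in No.10-3 PSF-RIP, 2410 in vehicle PSF-RIP and 529 to 543 in input. The 3 basal markers summed to 0.658 to 1.19 CPM in No.10-3 PSF-RIP, all of it KRT14, and to 0 in vehicle PSF-RIP and input, with KRT5 and TP63 at 0 throughout. The 3 leukocyte markers summed to 0 in No.10-3 PSF-RIP, 0.458 in vehicle PSF-RIP and 0.249 to 0.324 in input, all of it LYZ, with PTPRC and CD3E at 0 throughout. The 3 neuroendocrine markers summed to 94.1 to 103 CPM in No.10-3 PSF-RIP, 152 in vehicle PSF-RIP and 13.9 to 14.5 in input, mostly ENO2, with CHGA at 0 throughout. The 4 stromal markers summed to 52.0 to 54.6 CPM in No.10-3 PSF-RIP, 76.1 in vehicle PSF-RIP and 1.95 to 3.74 in input, almost all of it COL1A1, with DES at 0 throughout. The part of these markers in the results was not tested.

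The coding regions of the 7 genes differ in length and in how they end. ND5 is the longest at 1812 bases, followed by ND4 at 1378, ND2 at 1042, ND1 at 956, ND6 at 525, ND3 at 346 and ND4L at 297. The lengths of ND1, ND2, ND3 and ND4 are not multiples of 3, and mitochondrial mRNAs of this kind are known to gain the end of their stop codon from the poly(A) tail. ND4L and ND4 are adjacent, overlap at their ends and are known to be carried by a shared mRNA, so reads in the overlap cannot be assigned to either. ND5 and ND6 lie end to end on opposite strands. The libraries were made with a stranded kit, but the strand setting used in counting is not given in the sources used here, so reads of ND6 and of heavy-strand RNA antisense to it cannot be told apart. No symbol in the table begins with MTND, the usual name of nuclear copies of these genes, and how reads that map to several places were treated is not given either.

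Per kilobase, ND4 was the most abundant member in all 5 libraries, and ND3 or ND6 was the least abundant. ND4 stood at 12432 and 9987 FPKM (here CPM per kilobase of gene length) in No.10-3 PSF-RIP, at 8001 in vehicle PSF-RIP, and at 25891 and 18273 in input A and B. ND6 stood at 2017 and 2129 FPKM in No.10-3 PSF-RIP, 689 in vehicle PSF-RIP, and 677 and 945 in input. ND3 stood at 1193 and 1415 FPKM in No.10-3 PSF-RIP, 793 in vehicle PSF-RIP, and 3642 and 6448 in input. ND6 thus ranked last of the 7 in both inputs and in vehicle PSF-RIP, and above ND3 in both No.10-3 libraries. The highest and lowest members lay 10.4-fold and 7.06-fold apart in No.10-3 PSF-RIP, 11.6-fold in vehicle PSF-RIP, and 38.3-fold and 19.3-fold in input. The extremes were thus closer in PSF-RIP, with ND6 the lowest in input, but other members were farther apart there. ND2 and ND5 stood at 4270 and 11383 FPKM in No.10-3 replicate 1 and at 3398 and 6193 in replicate 2. In vehicle PSF-RIP they stood at 2421 and 5438, against 9672 and 10516 in input A and 9608 and 10395 in input B.

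The middle of the order was not fixed. ND1 averaged 7254 ± 1194 FPKM and ND5 8788 ± 3670 FPKM in No.10-3 PSF-RIP (SD, n = 2 each), and the pair changed places between replicates. ND5, ND1, ND2 and ND4L all lay between 9078 and 10975 FPKM in input. ND5 was above ND2, and ND2 above ND4L, in both inputs, while ND1 was the lowest of the 4 in input A and the highest in input B, so its place does not hold beyond the spread. In the 3 PSF-RIP libraries, by contrast, ND2 was below ND4L in each, at 3834 ± 617 against 5491 ± 1082 FPKM with No.10-3 (SD, n = 2) and at 2421 against 3701 FPKM with vehicle.

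**Figure D1:**
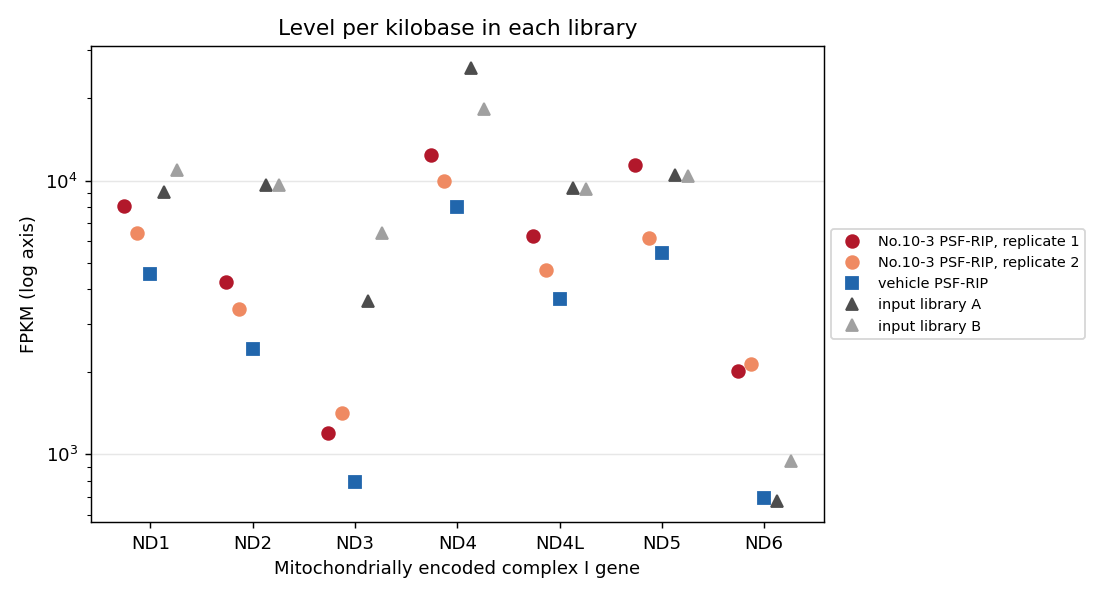
FPKM (log axis) of each of the 7 mitochondrially encoded complex I genes in the 5 libraries, 1 point per library. ND4 is highest everywhere. ND6 is the only gene whose No.10-3 PSF-RIP points (2017 and 2129) lie above both inputs (677 and 945), and ND5 is the only other gene with a PSF-RIP point above an input.

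The 7 genes together took a smaller share of counts in PSF-RIP than in input. They held 5.33% of counts in No.10-3 replicate 1 and 3.77% in replicate 2 (95% Wilson intervals of 5.29 to 5.36% and 3.75 to 3.79%). Vehicle PSF-RIP was at 2.95% (2.93 to 2.97%), against 7.79% in input A (7.76 to 7.82%) and 7.0% in input B (6.97 to 7.03%). Such intervals cover counting error only. All 3 PSF-RIP shares lay below both inputs. Counted against nuclear genes other than small noncoding RNAs, the gap was wider, at 6.5% and 4.15% in No.10-3 PSF-RIP and 3.58% in vehicle PSF-RIP, against 30.7% and 29.4% in input.

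The comparison of PSF-RIP with input shows how far each RNA was present after immunoprecipitation relative to the lysate. Because input was filled by a few small RNAs, its result depends on what is held equal. Under TMM scaling, which sets the typical gene near 0, the scaling factors were 1.78, 2.06 and 1.92 in PSF-RIP and 0.388 and 0.365 in input. Scaling to total gene counts instead raised the median log2 difference of all tested genes by 2.33, to 2.38. Both scales are given below, together with ratios between members, which do not depend on scaling.

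Under TMM scaling all 7 members were lower in PSF-RIP than in input, by 3.48-fold for ND6 and by 7.63-fold to 25.6-fold for the heavy-strand members. Their median log2 difference was -3.40, against 0.05 over all 13321 genes tested. All 7 passed the adjusted threshold of 0.05 in edgeR's quasi-likelihood test, as did 25.6% of all genes tested, 13.6% in the lower direction. All 3 PSF-RIP libraries lay below both inputs for 7 of 7 members, as for 25.1% of all genes. The count of members past the threshold was 6 without vehicle PSF-RIP and 6 without input B, where ND6 had log2 differences of -1.01 and -1.48, and 4 under scaling to total counts. Nothing is read from these counts, since this contrast was known when the genes were chosen. The count of 3413 genes called over all genes depended on single libraries: it was 623 without input B, 1170 without input A, 1405 without vehicle PSF-RIP, 4535 without No.10-3 replicate 1 and 5566 without replicate 2. The fit without vehicle PSF-RIP compares only the No.10-3 libraries with input.

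Among the core subunits of the proton-pumping arm, ND4 stood at 17131 and 13763 CPM in No.10-3 PSF-RIP, 11025 in vehicle PSF-RIP, and 35677 and 25180 in input A and B, a log2 difference of -3.56 (SE 0.56) under TMM scaling. ND4 was lower in every PSF-RIP library than in either input on both scales. ND2 stood at 4449 and 3540 CPM in No.10-3 PSF-RIP, 2523 in vehicle PSF-RIP, and 10078 and 10011 in input (log2 difference -4.01, SE 0.54). ND5 stood at 20626 and 11221 CPM in No.10-3 PSF-RIP, 9854 in vehicle PSF-RIP, and 19055 and 18835 in input (log2 difference -2.93, SE 0.54). No.10-3 replicate 1 thus held more ND5 in CPM than either input, while the other 2 PSF-RIP libraries held less.

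ND1, the subunit at the quinone site, stood at 7743 and 6128 CPM in No.10-3 PSF-RIP, 4366 in vehicle PSF-RIP, and 8678 and 10492 in input (log2 difference -3.15, SE 0.52). ND4L stood at 1858 and 1403 CPM in No.10-3 PSF-RIP, 1099 in vehicle PSF-RIP, and 2786 and 2773 in input (log2 difference -3.40, SE 0.49). For both genes the PSF-RIP libraries lay below both inputs on either scale, with No.10-3 replicate 1 the nearest to them. ND3 stood at 413 and 490 CPM in No.10-3 PSF-RIP, 275 in vehicle PSF-RIP, and 1260 and 2231 in input. Its log2 difference of -4.68 (SE 0.52) was the lowest of the 7, and the inputs themselves were 1.77-fold apart at this gene, the widest input gap of any member.

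ND6, the light-strand member, stood at 1059 and 1117 CPM in No.10-3 PSF-RIP, 362 in vehicle PSF-RIP, and 355 and 496 in input. Vehicle PSF-RIP lay between the inputs, and both No.10-3 libraries lay above them. Its log2 difference was -1.80 (SE 0.42) under TMM scaling but 0.56 under scaling to total counts, so its direction over input depends on the scaling. The other 6 members kept a negative log2 difference under total counts, at -0.60 for ND5, -0.80 for ND1, -1.05 for ND4L, -1.22 for ND4, -1.66 for ND2 and -2.31 for ND3. In CPM, 5 members (ND1, ND2, ND3, ND4 and ND4L) lay below both inputs in all 3 PSF-RIP libraries, a position shared by 0.571% of all tested genes, while 88.7% of genes lay above both inputs. By treatment, the TMM log2 difference of ND6 was -1.0 for No.10-3 PSF-RIP over input and -2.60 for vehicle PSF-RIP over input.

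**Figure D2:**
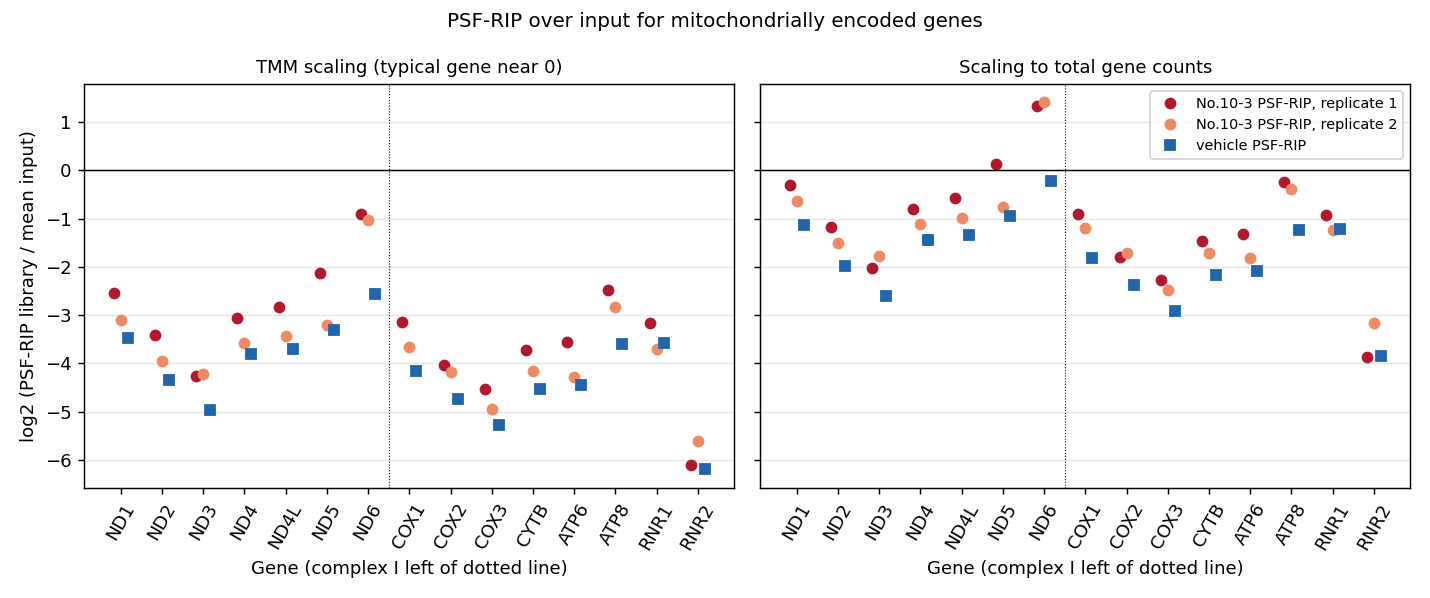
Log2 ratio of each PSF-RIP library to the mean of the 2 inputs for the 7 complex I genes and the 8 other mitochondrially encoded genes, under TMM scaling (left) and scaling to total counts (right). All points are below 0 under TMM scaling. Under total counts both No.10-3 points of ND6 (1.33 and 1.41) and the replicate 1 point of ND5 (0.12) are above 0.

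Several ratios between members within a library differed between the PSF-RIP and input libraries. ND6 amounted to 20.3 and 30.6 counts per 1000 counts of the 6 heavy-strand members in No.10-3 PSF-RIP and to 12.4 in vehicle PSF-RIP, against 4.58 and 7.14 in input A and B. Every PSF-RIP library thus held more ND6 relative to its heavy-strand neighbours than either input, by 3.45-fold on average over libraries (log2 1.79). The ND6 counts may include heavy-strand RNA antisense to ND6, as the strand setting used in counting is not given. Against ND5 alone, which adjoins it, ND6 was at 51.3 and 99.6 per 1000 counts in No.10-3 PSF-RIP, 36.7 in vehicle PSF-RIP, and 18.6 and 26.3 in input. Relative to the heavy-strand members, 95.2% of all other tested genes were also higher in every PSF-RIP library, but none of the 8 other mitochondrially encoded genes were. The position of ND6 over input thus lay between the heavy-strand RNAs and most nuclear RNAs, with 5.8% of tested genes at a lower TMM difference than ND6 and 0.901% or fewer at a lower one than any heavy-strand member.

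The heavy-strand members also differed among themselves. ND1 stood at 1740 and 1731 counts per 1000 counts of ND2 in No.10-3 PSF-RIP and at 1730 in vehicle PSF-RIP, against 861 and 1048 in input. The 3 PSF-RIP libraries gave almost the same ratio, although the level of each gene varied between them. ND5 per 1000 counts of ND4 was 1204 and 815 in No.10-3 PSF-RIP, 894 in vehicle PSF-RIP, and 534 and 748 in input. The groups did not overlap here either, but their nearest values, 815 and 748, were close. ND3 per 1000 counts of ND4L went the other way, at 222 and 349 in No.10-3 PSF-RIP, 250 in vehicle PSF-RIP, and 452 and 804 in input. For ND4L per 1000 counts of ND4, the pair on a shared mRNA, the groups overlapped, at 108 and 102 in No.10-3 PSF-RIP, 99.7 in vehicle PSF-RIP, and 78.1 and 110 in input. The share of other gene pairs that separate likewise was not counted, so nothing is read from the lack of overlap in the other pairs.

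**Figure D3:**
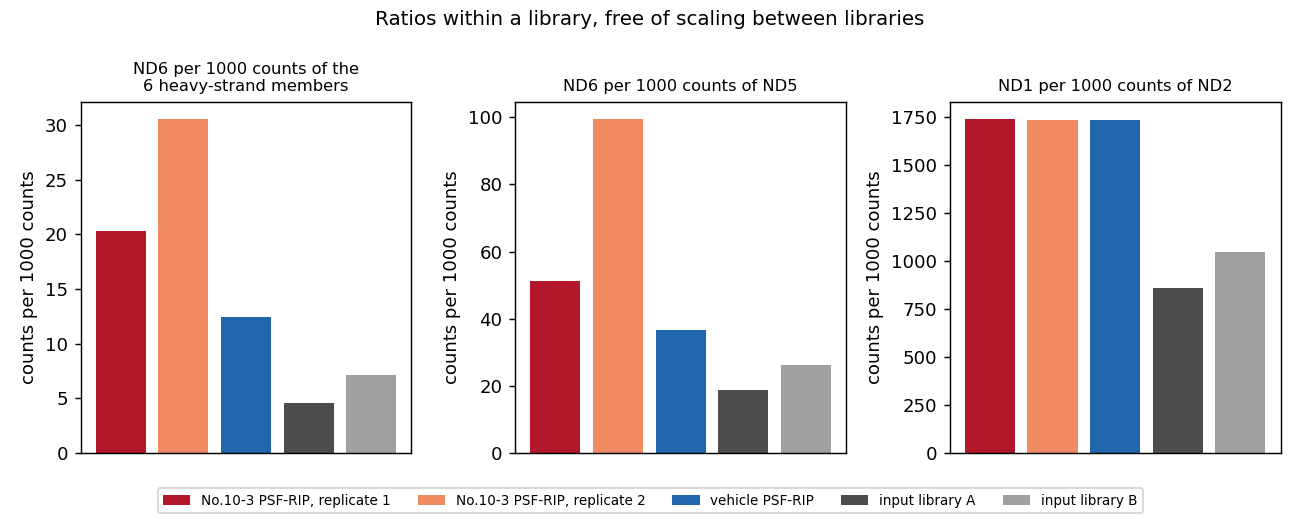
Counts of ND6 per 1000 counts of the 6 heavy-strand members (left), of ND6 per 1000 of ND5 (middle) and of ND1 per 1000 of ND2 (right), 1 bar per library. Each PSF-RIP bar is taller than both input bars in all 3 panels, and the ND1 bars of the 3 PSF-RIP libraries are nearly level (1730 to 1740).

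Seen as shares of the 7 genes' own counts, ND5 and ND6 took more in every PSF-RIP library than in either input, ND2 and ND3 took less, and ND1, ND4 and ND4L overlapped. How often other sets of genes separate likewise was not counted, so this is a description only. The inputs themselves were apart for ND3, at 1.62% in input A and 3.19% in input B. ND5 averaged 34.0% ± 4.49 in PSF-RIP (SD, n = 3) and 25.7% ± 1.72 in input (SD, n = 2). ND6 averaged 2.06% ± 0.873 in PSF-RIP and 0.582% ± 0.179 in input. ND2 averaged 8.77% ± 0.557 in PSF-RIP and 13.6% ± 0.961 in input, and ND3 averaged 1.0% ± 0.270 in PSF-RIP and 2.40% ± 1.11 in input. The share of ND5 was highest in No.10-3 replicate 1, at 38.7% (95% Wilson interval 38.4 to 39.0%), and that of ND6 in No.10-3 replicate 2, at 2.97% (2.88 to 3.06%). As a group, the 7 genes made up 43.8% and 39.7% of the counts of all 15 mitochondrially encoded genes in No.10-3 PSF-RIP and 42.7% in vehicle PSF-RIP, against 29.6% and 28.7% in input.

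**Figure D4:**
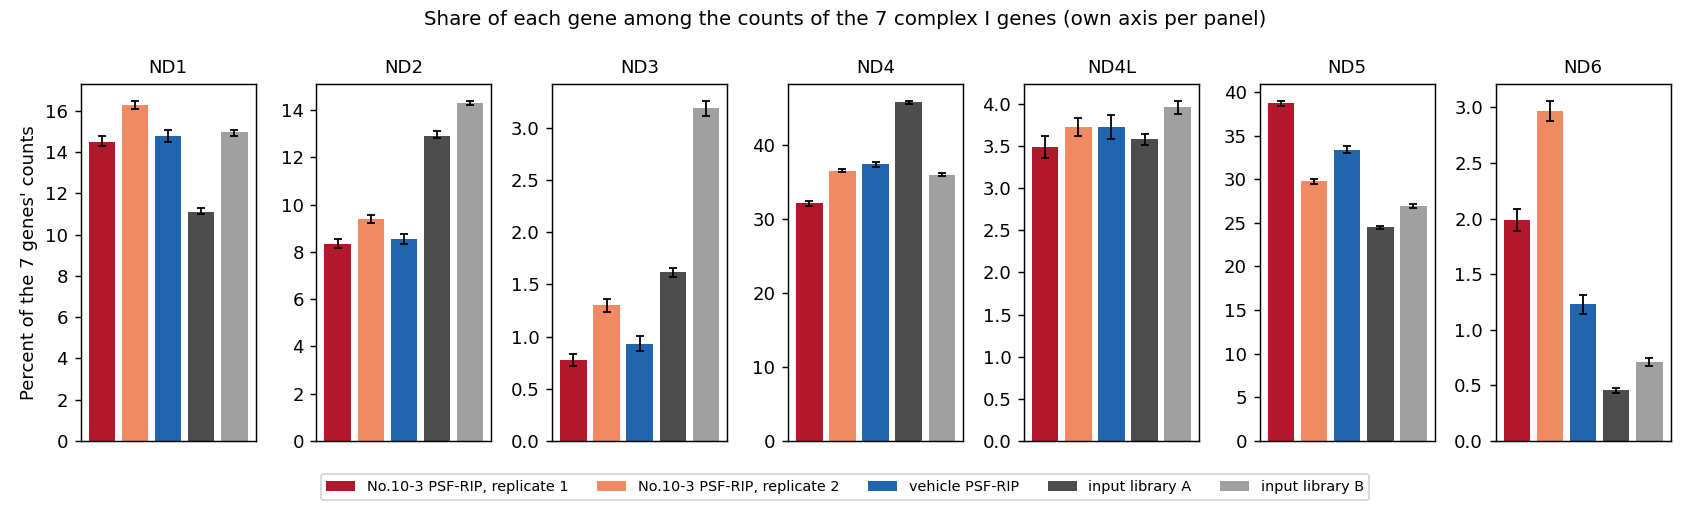
Percent of the summed counts of the 7 genes taken by each gene in each library, with 95% Wilson intervals (counting error only) and an axis from 0 for each gene. ND5 and ND6 are higher in all 3 PSF-RIP bars than in both input bars, and ND2 and ND3 are lower.

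With No.10-3, all 7 members stood above vehicle PSF-RIP in both treated libraries, a pattern shared by 33.1% of the 13766 genes tested in this comparison. None stood below vehicle in both, where 32.6% of all genes lay. ND6 differed most. It averaged 1088 ± 41.4 CPM with No.10-3 (SD, n = 2) and stood at 362 CPM with vehicle, a 3.02-fold difference (log2 1.59, SE 0.76) that was nearly the same in replicate 1 (log2 1.66) and replicate 2 (log2 1.52). ND6 was the only member at least 2-fold above vehicle in both treated libraries, as were 3.87% of all genes. Its log2 difference exceeded that of 97.7% of tested genes.

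The heavy-strand members lay 1.42-fold to 1.66-fold above vehicle, with log2 differences of 0.51 for ND4, 0.59 for ND4L, 0.68 for ND2, 0.69 for ND1, 0.71 for ND3 and 0.73 for ND5. Each of these was smaller than its SE except for ND3 (SE 0.66). The replicates differed for 5 of these 6 genes: ND5 lay at log2 1.18 above vehicle in replicate 1 and 0.08 in replicate 2, ND4 at 0.75 and 0.21, ND4L at 0.87 and 0.25, ND1 at 0.94 and 0.38, and ND2 at 0.93 and 0.38. ND3 was even, at 0.70 and 0.73. The median of all 7 was 0.69, against 0.04 over all genes tested. Relative to the heavy-strand members, ND6 was 2.01-fold higher in No.10-3 PSF-RIP than in vehicle PSF-RIP, whereas the ratio of ND1 to ND2 was equal (1.0-fold).

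edgeR's quasi-likelihood test called 0% of the 13766 genes and 0 of 7 members in this comparison, with a smallest adjusted p of 0.140 over all genes. Before adjustment, 563 genes passed 0.05. The DESeq2 test also made 0 calls, and 123 genes passed 0.05 in it before adjustment. Both treated libraries are set against the same single vehicle library, and an error in its value would move both alike. A difference in recovery with PSF and a difference in how much RNA the cells held cannot be told apart, since neither input can be tied to a treatment. In bulk RNA, fewer cells that express a gene and less of its RNA per cell cannot be told apart either.

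**Figure D5:**
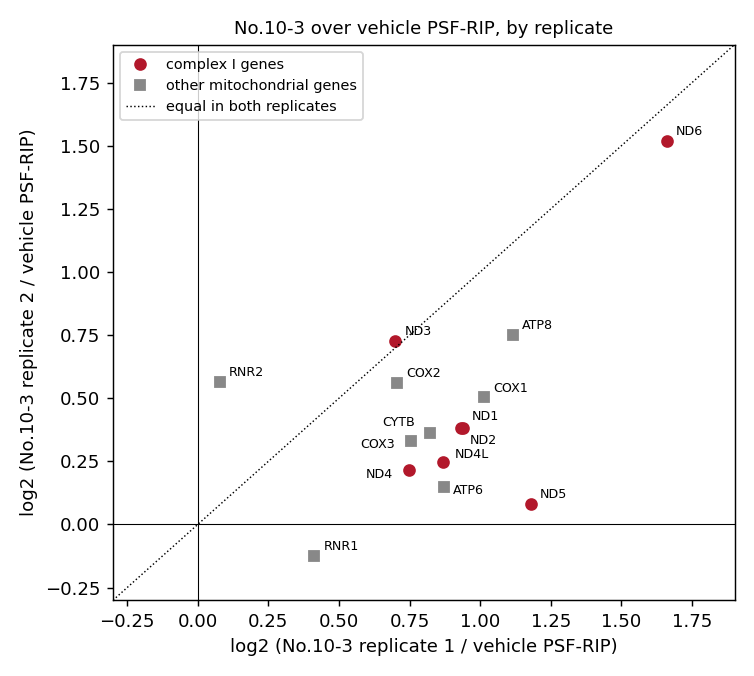
Log2 ratio to vehicle PSF-RIP of No.10-3 PSF-RIP replicate 1 (horizontal) and replicate 2 (vertical) for the 7 complex I genes and the 8 other mitochondrially encoded genes, both against the same vehicle library. ND6 (1.66 and 1.52) stands apart near the dotted line of equal values, while ND5 (1.18 and 0.08) lies farthest below it.

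The other mitochondrially encoded genes were described for comparison. The 6 other mRNAs, which encode cytochrome c oxidase subunits, cytochrome b and subunits of ATP synthase, had TMM log2 differences over input of -3.77 for COX1, -4.45 for COX2, -4.99 for COX3, -4.23 for CYTB, -4.16 for ATP6 and -3.29 for ATP8, with all 6 called lower. Their median was -4.19, against -3.40 for the 7 complex I RNAs, and this gap was not tested. With No.10-3 they lay at log2 0.55 to 0.95 over vehicle PSF-RIP, all below the 1.59 of ND6. The 2 mitochondrial ribosomal RNAs, RNR1 and RNR2, had log2 differences over input of -3.51 and -6.02, and with No.10-3 of 0.17 and 0.36. RNR1 and RNR2 were low in input too, at 233 to 506 CPM, against 59825 to 66715 CPM for COX1. RNR2 was at 47 to 171 counts in a PSF-RIP library, so it was scarce there.

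The nuclear partners of these RNAs had median log2 differences over input nearer to that of all genes (0.05). Of 37 nuclear-encoded complex I subunit mRNAs, 14 were lower in PSF-RIP than in input, 1 was higher and 22 did not pass the test under TMM scaling, with a median log2 difference of -0.42. That is 37.8% lower and 2.7% higher, against 13.6% lower and 12% higher over all genes tested. Under scaling to total counts 30 were higher (81.1%) and 0 lower, against 84.2% higher and 0.405% lower over all genes. Under TMM scaling the lowest were NDUFB1 (log2 -2.38, SE 0.39), NDUFB5 (-2.07) and NDUFA5 (-2.01). NDUFB1 stood at 32.9 and 27 CPM in No.10-3 PSF-RIP, 20.6 in vehicle PSF-RIP, and 19.2 and 31.5 in input. In CPM its PSF-RIP and input values thus overlapped. NDUFV1, which carries the NADH site of the peripheral arm, was higher (1.34, SE 0.40), while NDUFB9 (-1.11) and NDUFV3 (-1.05) were the least low of those called. In CPM, however, NDUFB9 and NDUFV3 were higher in every PSF-RIP library than in either input. NDUFB9 stood at 149 and 107 CPM in No.10-3 PSF-RIP, 57.8 in vehicle PSF-RIP, and 18.7 and 53.8 in input. No p is given for genes named from the nuclear lists, as the lists were chosen with earlier results of these data known. Leaving out 1 library gave 16 lower and 2 higher without No.10-3 replicate 1, 15 and 5 without replicate 2, 3 and 0 without vehicle PSF-RIP, 11 and 0 without input A, and 2 and 0 without input B. With No.10-3, 23 of the 37 (62.2%) lay above vehicle PSF-RIP in both treated libraries and 3 (8.11%) below in both, against 33.1% and 32.6% of all genes, with a median log2 difference of 0.54 and 0 called.

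Of 16 complex I assembly factor mRNAs, 3 were lower in PSF-RIP than in input (NDUFAF4 at log2 -2.27, NDUFAF2 at -1.77 and TMEM126B at -1.53), 1 was higher (ACAD9 at 1.29) and 12 did not pass the test under TMM scaling. NDUFAF4 and NDUFAF2 stood at 2.27 to 7.42 CPM across the 5 libraries, so their differences rest on few counts. The shares of 18.8% lower and 6.25% higher stand beside 13.6% and 12% over all genes. Under total counts 13 were higher (81.2%) and 0 lower, against 84.2% higher over all genes. Leaving out 1 library gave 4 lower and 2 higher without No.10-3 replicate 1, 3 and 2 without replicate 2, 1 and 0 without vehicle PSF-RIP, 2 and 1 without input A, and 0 and 0 without input B. Their median with No.10-3 over vehicle PSF-RIP was 0.03, with 3 (18.8%) above in both treated libraries and 5 (31.2%) below in both, against 33.1% and 32.6% of all genes.

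Of 25 mRNAs for mitochondrial RNA synthesis, processing and decay, 5 were lower in PSF-RIP than in input, 5 were higher and 15 did not pass the test under TMM scaling. The shares of 20% lower and 20% higher stand beside 13.6% and 12% over all genes. Under total counts 20 were higher (80%) and 0 lower, against 84.2% higher over all genes. Under TMM scaling the lowest of those called was TRMT10C, a subunit of mitochondrial RNase P (log2 -2.75, SE 0.52). Next came SLIRP, a partner of LRPPRC in stabilising mitochondrial mRNAs (-1.94), and TFAM, which packages mitochondrial DNA and starts its transcription (-1.44). TRMT10C stood at 5.27 and 10.4 CPM in No.10-3 PSF-RIP, 3.21 in vehicle PSF-RIP, and 8.98 and 4.54 in input. It thus rests on few counts, and its PSF-RIP and input values overlapped in CPM. The highest were POLRMT, the mitochondrial RNA polymerase (log2 2.68, SE 0.57), ELAC2, which cuts tRNAs at their 3′ ends (1.74), and FASTK, a factor needed for ND6 mRNA (1.5). POLRMT was at 25.0 and 29.7 CPM in No.10-3 PSF-RIP, 50.9 in vehicle PSF-RIP, and 0.997 and 1.30 in input, so its input values rest on few counts. Leaving out 1 library gave 5 lower and 5 higher without No.10-3 replicate 1, 11 and 5 without replicate 2, 2 and 2 without vehicle PSF-RIP, 2 and 0 without input A, and 1 and 1 without input B. Scaling to nuclear protein-coding counts gave 3 lower and 5 higher. With No.10-3, 7 (28%) lay above vehicle PSF-RIP in both treated libraries and 9 (36%) below in both, against 33.1% and 32.6% of all genes, with a median log2 difference of 0.01 and 0 called.

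The genes whose levels over the 5 libraries were most like the mean profile of the 7 members were sought among the 9139 other genes that averaged 10 CPM or more, by the distance between centred log2 profiles. The nearest were STMP1 (distance 0.264), COX1 (0.515), RPS13 (0.521), COMMD6 (0.530) and RPS20 (0.550). STMP1 stood at 42.8 and 41.6 CPM in No.10-3 PSF-RIP, 25.7 in vehicle PSF-RIP, and 56.1 and 63.9 in input. The profile of ND6 alone was nearest to UBE2E2 (0.225), C9orf152 (0.281), ATP5PO (0.299), NFIL3 (0.313) and TRMT12 (0.316). The heavy-strand members were left out of this search too, and no mitochondrially encoded gene outside the 7 was among the nearest. UBE2E2 stood at 29.0 and 35.6 CPM in No.10-3 PSF-RIP, 11 in vehicle PSF-RIP, and 11.7 and 14.6 in input, with both No.10-3 libraries above the other 3, as for ND6.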

How the data were processed

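The authors deposited 1 table with whole-number read counts per Entrez gene, gene length and FPKM for 5 libraries, per the file headers. The submitters' processing notes list TopHat2 2.1.0, Bowtie2 2.2.6, Bowtie and hg19 and give none of them a role. Which tool, strand setting and annotation were used for counting is not given in the sources used here. FPKM values as deposited equal CPM per kilobase within a relative deviation of 5.9e-08. The No.10-3 PSF-RIP columns lack PSF or RIP in their names and were assigned by elimination. The 2 input columns were used as a group.

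Genes that averaged 1 CPM or more entered edgeR 4.0.16 (R 4.3.3) on the counts, with TMM factors, its quasi-likelihood test and Benjamini-Hochberg adjustment over all genes. PSF-RIP over input used all 5 libraries in 3 groups (13321 genes, 2 residual degrees of freedom), averaging the 2 PSF-RIP group effects. The input pair's spread includes any treatment effect. No.10-3 over vehicle used the 3 PSF-RIP libraries (13766 genes, 1 residual degree of freedom from the treated pair, with vehicle assumed to vary alike). SE is the log2 difference divided by the square root of F. Log2 differences of single libraries to vehicle used a prior count of 2. Alternatives were other scalings, filters, DESeq2 1.42.0, other designs and single libraries left out. The fits were run on simulated libraries with a common mean profile apart from a set of altered genes. The gap in composition between PSF-RIP and input was therefore not covered by the simulation. No pair of libraries matched within sampling noise (lowest chi-square 7.86 times its degrees of freedom).

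The members and gene lists were chosen with earlier results of these data known. All 7 members and the 8 other mitochondrial genes are named. From each nuclear list, up to 3 genes with the lowest and 3 with the highest log2 PSF-RIP over input among those called are named, and the 5 nearest profiles. Older symbols were accepted. RefSeq biotypes (GRCh38.p14) matched 23696 Entrez IDs.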

Additional observations from a re-analysis of the deposited data

How the results depend on the processing

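No paired analysis was possible because the labels number only 1 library (rep2) and the input columns carry no treatment. PSF-RIP over input called 3413 genes (1596 higher, 1817 lower), a split of 46.8% higher. Total-count scaling called 11274 (11220 higher, 54 lower, 99.5% higher), and the DESeq2 test 2252 (985 higher). Scaling to the 8 other mitochondrial genes, chosen after seeing the data, called 13142 (13130 higher, 12 lower). Leaving out 1 library gave 623 to 5566 calls (68 to 2679 higher, 555 to 2887 lower). Of 98 log2 differences of members over input under 14 alternatives, 78 moved by less than the spread between libraries, 13 moved further and 7 turned sign. Under total counts ND6 turned to 0.56. Relative to the 8 other mitochondrial genes ND1 turned to 1.04, ND2 to 0.18, ND4 to 0.63, ND4L to 0.79, ND5 to 1.24 and ND6 to 2.41, while ND3 stayed at -0.46. The log2 share of the 7 members in PSF-RIP over input was -0.92 of all counts and -2.71 against nuclear genes without small noncoding RNAs. ND6 relative to the heavy-strand members was 1.79, and 1.37 against ND5 alone. With No.10-3 over vehicle, none of 70 member values under 10 alternatives turned sign, and leaving out a replicate gave 0.08 to 1.18 for ND5 and 1.52 to 1.66 for ND6. Totals of 1519362 to 4010376 counts limit scarce RNAs such as RNR2 more than the members.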

Other observations

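The 2 inputs differed at several of the shorter mitochondrial mRNAs. Input B over input A was 2.54-fold for ATP8, 1.77-fold for ND3, 1.42-fold for COX2 and 1.40-fold for ND6 in CPM, and 0.706-fold for ND4. ND4L, the shortest member, and ND2 and ND5 were level between the inputs (0.995-fold, 0.993-fold and 0.988-fold). Across the 13 mitochondrial mRNAs, which share the same 2 libraries and are not independent, the log2 ratio of the inputs had a Pearson's r of -0.74 and a Spearman's rho of -0.65 with log2 gene length. The log2 difference of PSF-RIP over input had an r of -0.02 with length. For No.10-3 over vehicle PSF-RIP r was -0.27, and for No.10-3 PSF-RIP replicate 2 over replicate 1 it was -0.51. Whether input B is the vehicle or the No.10-3 input is not known.

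The overlapping genes ATP8 and ATP6 are also known to be carried by a shared mRNA, as ND4L and ND4 are. ATP8 was at 94.7 and 121 counts per 1000 counts of ATP6 in No.10-3 PSF-RIP, 79.8 in vehicle PSF-RIP, and 26.4 and 75.4 in input A and B, so the inputs differed more from each other than the PSF-RIP libraries did. RNR2 was at 227 and 466 counts per 1000 counts of RNR1 in No.10-3 PSF-RIP, 286 in vehicle PSF-RIP, and 1729 and 1768 in input.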
